A study of Rattus norvegicus with 34 samples.

Results

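This report compares the transcriptome of the left ventricle (LV) with that of peripheral blood mononuclear cells (PBMCs) in rats that had no infarct. It uses the 12 arrays of sham-operated animals, 6 of LV and 6 of PBMCs, out of 34 arrays in the series, and they were chosen by the sample titles alone. In the study, male Wistar rats underwent ligation of the left coronary artery and were sorted by infarct size 2 months later, and LV and blood samples were then hybridized to Rat Gene 1.0 ST arrays, which read whole transcripts with several probes each. Sham-operated rats, the controls of that study, went through the same chest surgery with the suture left untied. No transgene or study drug is stated for them, the samples were taken 2 months after the operation, and the whole LV was used. The rats were anaesthetised with ketamine and xylazine at the operation and again before echocardiography, LV catheterization and sampling. The PBMCs came from blood drawn by cardiac puncture and were isolated by density-gradient centrifugation, without any further sorting. The methods describe a single sham group of 6 rats that gave both heart and blood, so the 12 arrays are taken to come from the same 6 rats. The labels call the samples biological replicates but do not say which LV and PBMC samples share a rat, and the test treats the 12 samples as independent. An LV sample is a mixture of cardiomyocytes, fibroblasts, vascular cells, resident macrophages and the blood left in the tissue, and a PBMC sample is a mixture of lymphocytes, monocytes and whatever platelets and red cells came through the gradient.

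The ventricle is a muscle that contracts without rest. Its cardiomyocytes are packed with sarcomeres, in which myosin pulls on actin, and with mitochondria that burn mainly fatty acids. Each beat begins when calcium enters through the L-type channel and releases more calcium from the sarcoplasmic reticulum through the ryanodine receptor, and it ends when a calcium pump returns it. Lymphocytes and monocytes, by contrast, circulate in a resting state, sense antigens and microbial products through surface receptors, and move by remodelling a cytoplasmic actin skeleton. The cell types share the housekeeping machinery but are built under different transcription factors, such as GATA4, NKX2-5, TBX5 and the MEF2 family in the heart, and PU.1, Ikaros and TCF/LEF factors in blood.

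The LV and PBMC arrays appear to have been normalized apart, since the array medians were 6.52 to 6.57 in LV and 6.98 to 7.01 in PBMCs on the log2 scale, so the signals of the tissues are not on a common scale. Each value was therefore turned into the percentile of a transcript cluster (a group of probes summarized as 1 value) among all 29214 transcript clusters of its own array. There 0 is the dimmest and 100 the brightest. Of these transcript clusters, 15310 had 1 gene symbol, 323 had several and 13581 had none listed. A percentile is a place in the order of brightness and not a concentration, so it is compared here only between tissues for the same transcript cluster. The array order was tight within a tissue, with rank correlations of 0.991 to 0.995 between LV arrays and 0.994 to 0.996 between PBMC arrays, against 0.815 to 0.820 between an LV and a PBMC array. A transcript cluster varied by a median SD of 1.55 percentile points over the 6 LV arrays and 1.33 points over the 6 PBMC arrays. Of the 2922 transcript clusters among the brightest 10% in LV, 1549 (53.0%) were also among the brightest 10% in PBMCs. Tissue and separate normalization cannot be told apart in this design, and in mixed samples fewer cells of a type and less RNA per cell cannot be told apart either.

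A transcript cluster was called when limma's moderated test gave an adjusted p (Benjamini-Hochberg) no higher than 0.05 and the tissues differed by at least 20 percentile points. This held for 4689 transcript clusters (16.1% of all), 2507 of them higher in LV (8.58%) and 2182 higher in PBMCs (7.47%). Counting each of the 14506 genes with a single symbol once, 1675 were higher in LV (11.5%) and 975 were higher in PBMCs (6.72%). These shares are the background for the counts of gene groups. They also depend on the naming, since 1730 of the 2507 transcript clusters higher in LV had 1 symbol, but 993 of the 2182 higher in PBMCs. Without the size threshold, 22991 transcript clusters (78.7%) passed the adjusted p, and in 18785 (64.3%) the LV and PBMC arrays did not overlap, so the calls rest on the size threshold. Which tissue held more calls depended on the scale and the threshold. On the centred log2 scale with a difference of at least 1, 3864 transcript clusters were higher in LV and 4482 in PBMCs, on the signals as deposited 2708 and 7973, and with a threshold of 10 percentile points 4797 and 5437. The median difference, LV minus PBMC, was -0.18 points over all genes. Of the calls, 910 exceeded 40 points in favour of LV and 537 in favour of PBMCs, and 43 and 6 exceeded 80 points. All 4689 calls also differed by at least 1 in the same direction on a log2 scale with each array centred on its median. That scale showed a further 2076 genes with a difference of at least 1, and 659 of them lay above the 80th percentile in both tissues, where a percentile has little room left to move. For some such genes the log2 difference is given beside the percentile.

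**Figure D1:**
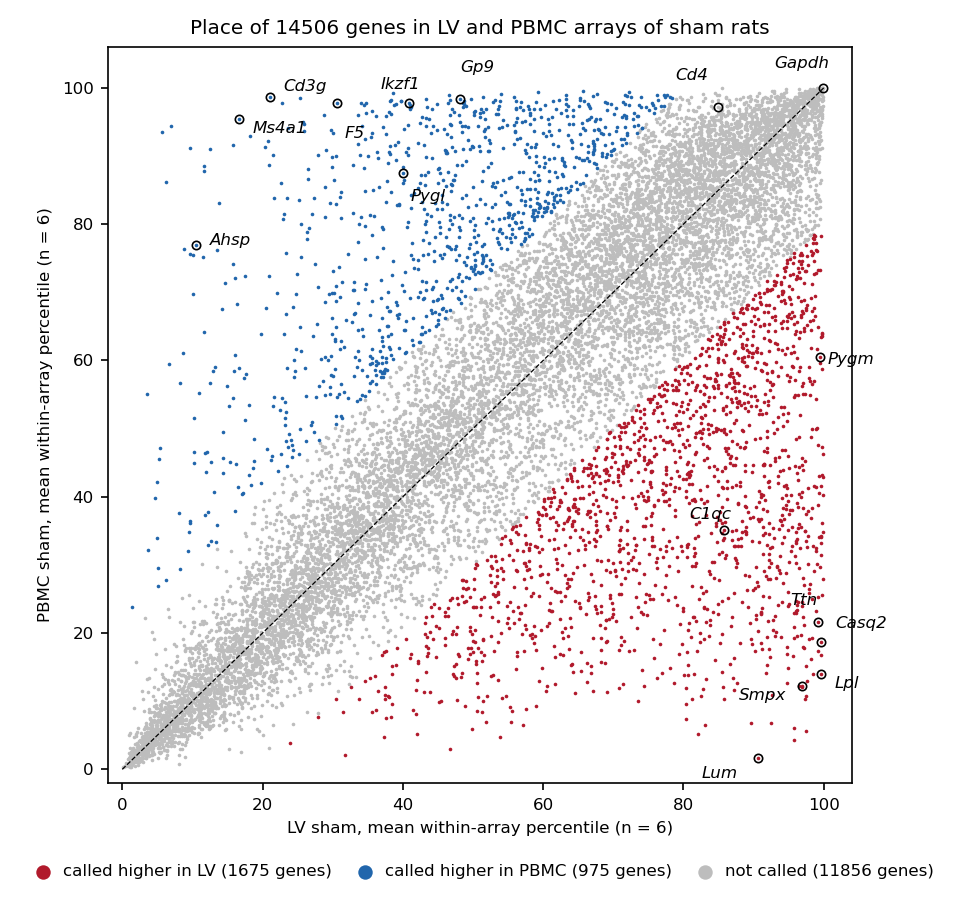
Mean within-array percentile of 14506 genes in LV (horizontal axis) and in PBMCs (vertical axis) of sham rats, each the mean of 6 arrays, with the dashed line marking equal places. The 1675 genes called higher in LV lie below the line, the 975 called higher in PBMCs lie above it, and in the upper right corner few genes can differ by 20 points.

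In all genes given here by their lowest, highest and median array, the LV and PBMC arrays were separate unless an overlap is stated. The genes with the largest differences in favour of LV, among calls without overlap, included Tecrl and Nexn. Tecrl, which encodes an endoplasmic reticulum reductase linked to inherited arrhythmia, lay at 95.5 to 96 (median 95.8) in LV and at 3.60 to 4.54 (median 4.43) in PBMCs (91.5 points, SE 0.285, adjusted p = 5.08e-20). Nexn, an actin-binding protein of the Z-disc, lay at 95.4 to 96.2 (median 95.8) in LV and 5.28 to 7.23 (median 5.89) in PBMCs (89.7 points, SE 0.360, adjusted p = 1.68e-19). The glutathione transferase gene Gstm2 differed by 91.9 points, the largest value of all genes with 1 symbol. The 15 genes with the largest differences at this end also included Lum, Ogn, Dcn and Aspn (small leucine-rich proteoglycans of the matrix), C7 (a complement component), Adgrf5 (an adhesion receptor of endothelium), Lpl (lipoprotein lipase), Ppp1r3a (a glycogen-targeting subunit of protein phosphatase 1), Ghr (the growth hormone receptor), Fgf1 (a growth factor), Smpx (a small muscle protein) and Tmem182. Their differences ran between 82.8 and 91.9 points.

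In favour of PBMCs, the genes with the largest differences, chosen in the same way, included Cd40lg and Ms4a4c. Cd40lg, the T cell ligand that licenses B cells, lay at 4.94 to 8.62 (median 6.75) in LV and at 93.7 to 95.2 (median 94.3) in PBMCs (-87.5 points, SE 0.560, adjusted p = 4.41e-18). Ms4a4c, a membrane protein of the CD20 family, differed by -87.8 points, with 4.78 to 6.27 (median 6.09) in LV and 92.9 to 94 (median 93.6) in PBMCs. The differences of the 15 genes at this end ran between -71 and -87.8 points. They also included Trat1, Cd3g, Sh2d1a and Cd226 of T and natural killer cells, Ms4a1 (CD20) and Cr2 (complement receptor 2) of B cells, Il7r (the interleukin 7 receptor), P2ry10 (a lysophospholipid receptor), B3gnt5, Ceacam4, Xkrx, Serpinb11 and Rhag, a protein of the red cell membrane.

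**Figure D2:**
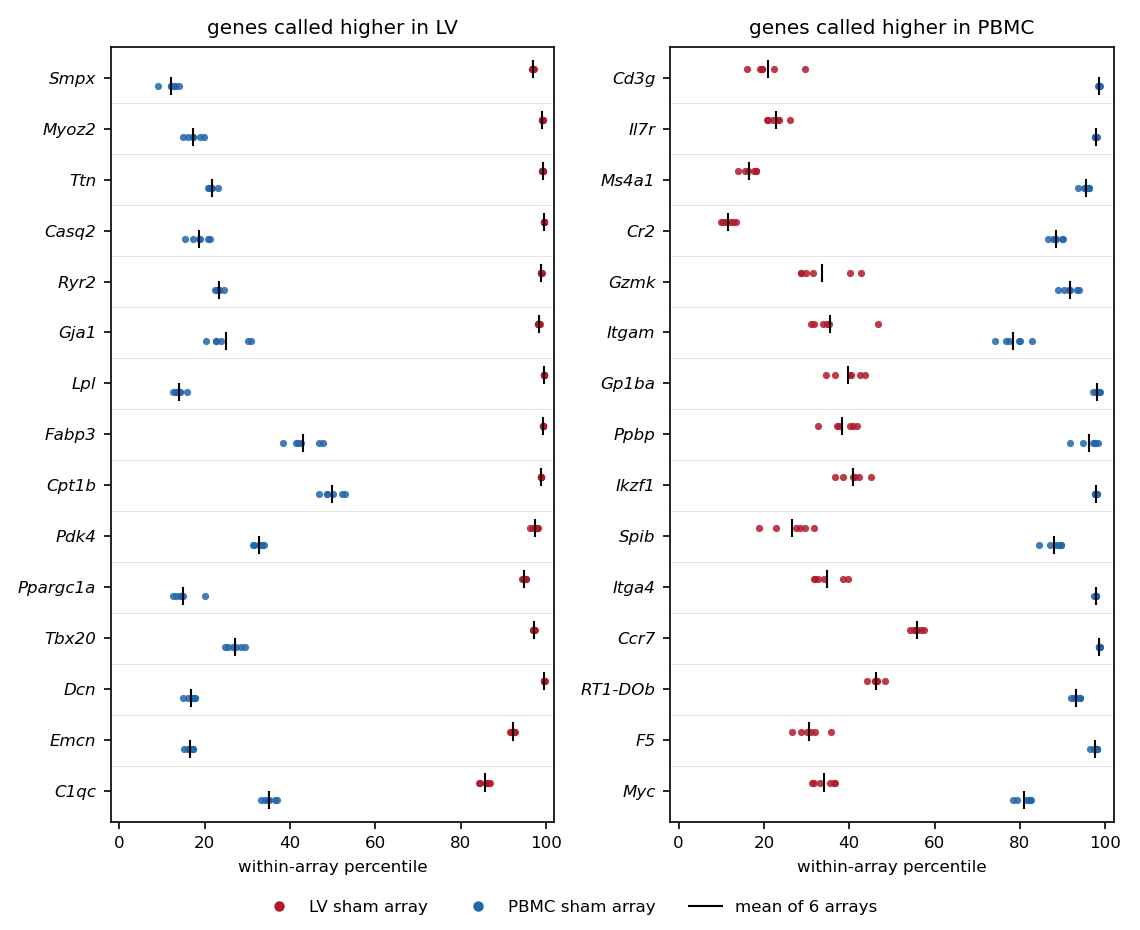
Within-array percentile of 30 genes in each of the 6 LV sham arrays (red, upper row of each gene) and the 6 PBMC sham arrays (blue, lower row), with black bars for the means. Genes of the left panel were called higher in LV and those of the right panel higher in PBMCs, and all were chosen after their values were seen, such as Cd3g with 16 to 29.5 in LV and 98.4 to 98.7 in PBMCs.

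Sarcomere and Z-disc genes, which build the contractile unit, stood almost entirely on the LV side. Of 22 measured, 21 were called higher in LV and 0 higher in PBMCs, with a median difference of 63.2 points (7.17 on the centred log2 scale). Myoz2 (myozenin 2, which ties calcineurin to the Z-disc) lay at 99.1 to 99.2 (median 99.2) in LV and at 15 to 19.8 (median 17.3) in PBMCs (81.8 points, SE 0.698, adjusted p = 4.77e-17). Ttn, the giant spring protein titin, lay at 99.1 to 99.3 (median 99.2) in LV and at 20.9 to 23.2 (median 21.5) in PBMCs (77.6 points, SE 0.397, adjusted p = 7.85e-19). Smpx and Myom1 (myomesin, of the M-band) differed by 84.7 and 74.7 points. The median percentile of the list was 99.3 to 99.4 over LV arrays and 34.7 to 35.9 over PBMC arrays. The single member not called was Pdlim5, an adaptor that is not restricted to muscle, with 90.2 ± 0.677 in LV and 81.5 ± 0.628 in PBMCs (mean ± SD, n = 6 each). The shorter list of cardiomyocyte markers, chosen to check the LV label, was called higher in LV in 12 of 12, with a median of 61.1 points.

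Calcium handling and excitation genes showed the same side with more exceptions, 23 of 26 higher in LV and a median difference of 49.5 points. Casq2, the calsequestrin that stores calcium in the sarcoplasmic reticulum, lay at 99.6 on every array in LV and at 15.5 to 21.2 (median 18.7) in PBMCs (80.9 points, SE 0.835, adjusted p = 2.88e-16). Ryr2, the cardiac ryanodine receptor, lay at 98.8 to 99 (median 98.9) in LV and at 22.5 to 24.5 (median 23.2) in PBMCs (75.6 points, SE 0.358, adjusted p = 4.3e-19). Gja1, the gap junction protein connexin 43, and Pln, the phospholamban that restrains the calcium pump, differed by 73.2 and 72 points, again without overlap. The 3 members not called were Atp2a2, Kcnh2 and Asph. Atp2a2, the calcium pump of the reticulum that many cell types use, lay at 99.7 to 99.8 (median 99.8) in LV and at 95.3 to 96 (median 95.7) in PBMCs, and its difference of 4.12 points corresponded to 2.54 on the centred log2 scale (SE 0.04, adjusted p = 1.59e-16). Kcnh2, a repolarizing potassium channel, came just under the size threshold at 19.6 points.

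Of the 3 lists of energy metabolism, that of fatty acids had the widest median difference. Among genes for fatty acid uptake and oxidation, 18 of 25 were higher in LV and none was higher in PBMCs. The median difference was 24.7 points (3.44 on the centred log2 scale). Lpl, which releases fatty acids from lipoproteins at the vessel wall, lay at 99.5 to 99.7 (median 99.6) in LV and 12.6 to 15.9 (median 13.8) in PBMCs (85.6 points, SE 0.503, adjusted p = 2.61e-18). Fabp3, the muscle fatty acid binding protein, lay at 99.3 to 99.4 (median 99.4) in LV and 38.4 to 47.7 (median 42.2) in PBMCs (56.3 points, SE 1.35, adjusted p = 7.58e-13). Of the carnitine palmitoyltransferase genes on the route into mitochondria, Cpt1b differed by 48.9 and Cpt2 by 41 points. Cpt1a, of the same family, was not called, with 89.3 in LV and 80.5 in PBMCs (8.80 points). The fatty acid transporter Cd36 was called with 20.5 points, and without PBMC replicate 3 or 6 it fell below the size threshold.

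For the citrate cycle and respiratory chain, which every nucleated cell runs, 5 of 35 genes were called higher in LV and 0 higher in PBMCs. Of all genes with 1 symbol 11.5% were called higher in LV, so this count is close to the background. All 35 differences were positive all the same, and the list's median was 10.03 points and 2.65 on the centred log2 scale, while the median percentile of the list was 99 over LV arrays and 87.7 to 88.9 over PBMC arrays. The 5 that passed the size threshold were Ndufs3 (32.4 points) of complex I, Uqcrfs1 (23.5) of complex III, Cox5b (21.4) of complex IV, Atp5po (24.3) of the ATP synthase and Idh2 (21.4), the mitochondrial isocitrate dehydrogenase that uses NADP. Glucose and glycogen genes were mixed, with 11 higher in LV, 2 higher in PBMCs and 20 not called (median 7.37 points, 1.44 on the centred log2 scale). Pdk4, the kinase that shuts pyruvate out of the citrate cycle, lay at 96.3 to 98.1 (median 98) in LV and 31.2 to 33.9 (median 32.9) in PBMCs (64.9 points, SE 0.548, adjusted p = 4.56e-17). Gys1, the glycogen synthase of muscle, differed by 51.4 points. The 2 genes on the other side were Pygl, the liver-type glycogen phosphorylase, and Slc2a3, the glucose transporter GLUT3 of blood cells and neurons.

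Isoform pairs allowed the comparison within protein families. Of 31 pairs, each a muscle-type or constitutive gene and a relative, 27 had both members measured. The first member was called higher in LV in 19 pairs, the second was called higher in PBMCs in 6, and the reverse was called in 0 pairs. In 16 pairs the differences had opposite signs, on the percentile and on the centred log2 scale alike, which is a tally of signs, and in 1 of them the second member did not pass the adjusted p on the log2 scale. Both members were called in 2 pairs. In the glycogen phosphorylases, Pygm of muscle lay at 99.5 to 99.6 (median 99.5) in LV and 58.2 to 63.1 (median 60.6) in PBMCs (39 points, SE 0.776, adjusted p = 1.29e-13), while Pygl lay at 27.9 to 46.9 (median 41.7) in LV and 83.7 to 89.4 (median 88) in PBMCs (-47.4 points, SE 2.80, adjusted p = 5.91e-09). In the coronins, which bind actin, Coro6 differed by 38.8 points and Coro1a, the leukocyte coronin, by -31.5 points.

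Among the calcium pumps, Atp2a3, the isoform of blood and endothelial cells, lay at 66.7 to 71.8 (median 70.8) in LV and 95.3 to 97.1 (median 96.3) in PBMCs (-26.1 points, SE 0.767, adjusted p = 5.51e-12), opposite in sign to Atp2a2. The other second members called were Rac2, the haematopoietic GTPase (-21.4 points), Psmb8 of the immunoproteasome (-23.9) and Slc2a3 (-21.2), whose call was lost without PBMC replicate 3. Subunits of cytochrome oxidase, the last complex of the respiratory chain, differed by form. Cox8b and Cox6a2, the heart and muscle forms, differed by 7.39 and 7.0 on the centred log2 scale, while Cox8a and Cox6a1, the forms found in most tissues, differed by 0.84 and 1.02. The constitutive proteasome subunits Psmb5, Psmb6 and Psmb7 had differences of 1.73, 11.6 and 6.10 points (1.03, 0.84 and 1.57 on the centred log2 scale), and their immunoproteasome counterparts Psmb8, Psmb9 and Psmb10 had -23.9, -15.1 and -18 points. Among these 6 the size threshold was met by Psmb8 alone, and Psmb6 has a further transcript cluster with a different call.

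**Figure D3:**
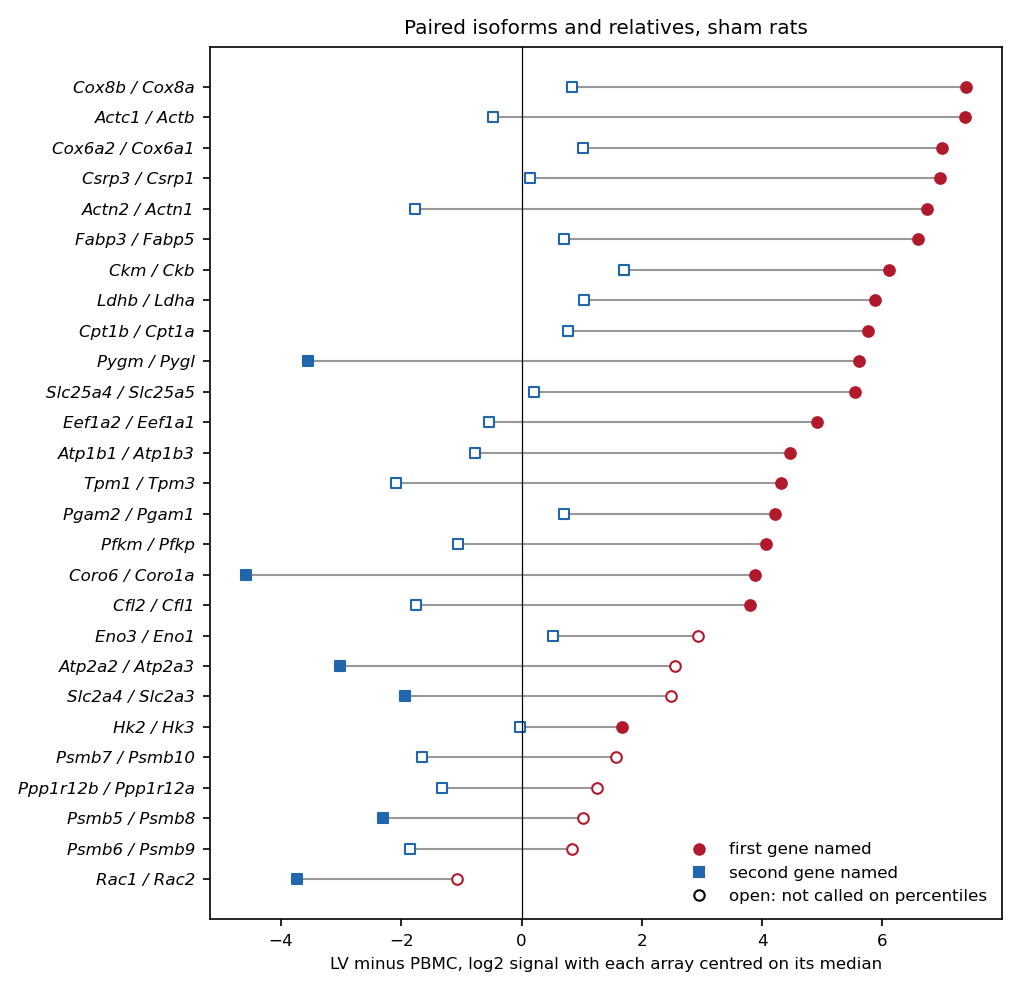
LV minus PBMC difference on the log2 scale, each array centred on its median, for both members of 27 gene pairs in sham rats (6 LV against 6 PBMC arrays). Red circles are the first gene named on the axis and blue squares the second, filled symbols were called on percentiles, and in 16 pairs the symbols lie on opposite sides of 0.

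Cardiac transcription factors and metabolic regulators were higher in LV in 15 of 19, with a median of 55.8 points. Ppargc1a, the coactivator PGC-1α that drives mitochondrial biogenesis, lay at 94.3 to 95.4 (median 95.1) in LV and 12.6 to 20.2 (median 14.3) in PBMCs (80.04 points, SE 1.06, adjusted p = 2.88e-15). Tbx20, a T-box factor of the heart, lay at 97 to 97.6 (median 97.2) in LV and 24.7 to 29.6 (median 27.1) in PBMCs (70.1 points, SE 0.738, adjusted p = 3.4e-16). Ankrd1, a stretch-responsive cofactor, and Ppara, the receptor that turns on fatty acid oxidation, differed by 74.1 and 68.1 points. The 4 members not called were Esrra, Srf, Mef2d and Mef2a, factors that are used outside the heart as well. Mef2a lay at 95.6 to 96 (median 95.6) in LV and 94.9 to 95.9 (median 95.5) in PBMCs, overlapping groups with a difference of 0.221 points (adjusted p = 0.511), and both Mef2a and Mef2d changed sign on the signals as deposited.

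Lymphoid and myeloid transcription factors were higher in PBMCs in 14 of 26 and higher in LV in 0, with a median of -23.6 points. Spib, an ETS factor of B cells and plasmacytoid cells, lay at 18.8 to 31.7 (median 28) in LV and 84.5 to 89.7 (median 88.8) in PBMCs (-61.6 points, SE 1.96, adjusted p = 1.21e-11). Ikzf1, which encodes Ikaros, lay at 36.6 to 45 (median 41.1) in LV and 97.6 to 98.1 (median 97.8) in PBMCs (-57 points, SE 1.14, adjusted p = 1.31e-13). Stat4, a mediator of interleukin 12 signals, and Lef1, a T cell factor, differed by -55.8 and -51.6 points.

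These factors act on promoters, so the sequence around the start of the called genes was described as well. Of 14506 genes, 11950 (82.4%) matched a RefSeq promoter window of 250 bases before to 50 bases after the annotated start (assembly GRCr8). The observed over expected ratio of CpG dinucleotides, which is high in the promoters of broadly used genes, had a median of 0.640 in the 1307 genes higher in LV, 0.462 in the 785 higher in PBMCs and 0.672 in the 9858 not called. Among genes that differed by at least 40 points it was 0.498 for LV (481 genes) and 0.318 for PBMCs (211 genes). A MEF2 site on either strand was found in 3.21% of windows of LV genes and 1.66% of PBMC genes, against 2.52% of all 11950 windows, and among genes past 40 points in 6.86% and 1.42%. GAGGAAG, the core of the PU.1 site, was found in 11.9% of LV and 18% of PBMC windows against 13% of all, and past 40 points in 11.9% and 24.6%. CCGGAAG, the ETS site of many housekeeping promoters, was found in 5.89% and 10.4% against 13%, and past 40 points in 3.33% and 4.27%. The CArG box, bound by serum response factor, was found in 1.84% and 1.4% against 1.28%, and TATAAA in 9.87% and 9.94% against 11.7%. All motifs were searched on both strands, a MEF2 site or CArG box can hold TATAAA, and GAGGAAG and CCGGAAG end in the same letters, GGAAG. A match is a description of letters and not a bound site, and these shares were not tested.

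The windows of 3 listed genes higher in LV that hold the MEF2 site are shown to make such a promoter visible. They are those of Smpx, Myoz2 and Casq2, the 3 with the largest difference among 8 listed genes with this motif, and capitals mark the MEF2 site. The Smpx window lies at chrX:41107088-41107387 (reverse strand), with the site at bases -101 to -92 from the annotated start. The Myoz2 window lies at chr2:213852729-213853028 (reverse strand), with the site at -53 to -44, and the Casq2 window at chr2:192214306-192214605 (forward strand), with the site at -149 to -140.
Smpx: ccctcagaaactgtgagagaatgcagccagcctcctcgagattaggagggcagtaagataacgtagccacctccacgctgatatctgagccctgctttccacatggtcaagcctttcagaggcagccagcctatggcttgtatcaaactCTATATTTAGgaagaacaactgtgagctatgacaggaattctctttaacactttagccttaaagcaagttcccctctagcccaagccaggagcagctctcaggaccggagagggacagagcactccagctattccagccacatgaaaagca
Myoz2: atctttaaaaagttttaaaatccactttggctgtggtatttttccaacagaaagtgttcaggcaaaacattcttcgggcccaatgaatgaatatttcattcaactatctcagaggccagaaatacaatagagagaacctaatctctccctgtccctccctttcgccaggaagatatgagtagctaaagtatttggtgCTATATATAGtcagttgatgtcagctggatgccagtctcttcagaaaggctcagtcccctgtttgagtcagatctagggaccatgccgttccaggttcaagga
Casq2: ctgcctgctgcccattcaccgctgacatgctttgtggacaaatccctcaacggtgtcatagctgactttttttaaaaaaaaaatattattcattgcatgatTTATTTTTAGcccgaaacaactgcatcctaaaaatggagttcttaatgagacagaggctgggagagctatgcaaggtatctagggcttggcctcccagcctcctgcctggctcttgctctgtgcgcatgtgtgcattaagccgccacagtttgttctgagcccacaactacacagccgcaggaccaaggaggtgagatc

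For PBMCs the windows of Cd22, Icos and Gp1ba are shown, the 3 with the largest difference among 28 listed genes higher in PBMCs that hold GAGGAAG, and capitals mark that motif or, on the other strand, its reverse complement. Cd22 is an inhibitory receptor of B cells, Icos a costimulator of T cells and Gp1ba the platelet receptor for von Willebrand factor. Their windows lie at chr1:95259681-95259980 (reverse strand, motif at -64 to -58), chr9:69877549-69877848 (forward strand, motif at -59 to -53) and chr10:55851309-55851608 (forward strand, motif at -37 to -31).
Cd22: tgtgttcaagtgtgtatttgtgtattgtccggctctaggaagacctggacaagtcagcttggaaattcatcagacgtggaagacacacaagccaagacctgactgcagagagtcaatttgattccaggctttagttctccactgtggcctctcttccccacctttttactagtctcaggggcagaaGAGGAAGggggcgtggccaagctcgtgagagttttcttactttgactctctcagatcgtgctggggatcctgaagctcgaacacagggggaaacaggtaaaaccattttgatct
Icos: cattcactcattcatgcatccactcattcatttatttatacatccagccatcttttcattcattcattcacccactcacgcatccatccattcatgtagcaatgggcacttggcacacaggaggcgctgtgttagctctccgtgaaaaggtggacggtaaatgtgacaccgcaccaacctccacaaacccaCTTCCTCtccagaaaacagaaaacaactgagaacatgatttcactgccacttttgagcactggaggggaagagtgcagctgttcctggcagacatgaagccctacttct
Gp1ba: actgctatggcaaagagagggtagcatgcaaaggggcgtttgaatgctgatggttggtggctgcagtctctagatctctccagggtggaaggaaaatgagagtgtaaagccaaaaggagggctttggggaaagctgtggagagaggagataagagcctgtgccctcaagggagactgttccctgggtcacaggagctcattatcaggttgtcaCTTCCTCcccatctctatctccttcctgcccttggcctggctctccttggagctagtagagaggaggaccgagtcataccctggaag

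Icos lay at 22.6 to 25.6 (median 23.3) in LV and 81.6 to 85.6 (median 84.1) in PBMCs (-60.4 points, SE 0.713, adjusted p = 9.7e-16). Cd22 lay at 24.3 to 31.2 (median 27.4) in LV and 88.3 to 91.4 (median 90.2) in PBMCs (-62.3 points, SE 1.14, adjusted p = 5.68e-14). Gp1ba lay at 34.5 to 43.7 (median 40.3) in LV and 97 to 98.8 (median 98.3) in PBMCs (-58.5 points, SE 1.37, adjusted p = 5.97e-13).

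Genes of connective tissue and vessels were also higher in LV for the most part. Of 24 extracellular matrix genes 18 were higher in LV, with a median of 30.6 points. Lum, which encodes the collagen-binding proteoglycan lumican, lay at 89.4 to 91.3 (median 90.8) in LV and 0.938 to 2.73 (median 1.66) in PBMCs (88.9 points, SE 0.463, adjusted p = 9.44e-19). Dcn, which encodes decorin, lay at 99.6 to 99.7 (median 99.7) in LV and 15 to 17.8 (median 17.1) in PBMCs (82.8 points, SE 0.470, adjusted p = 1.95e-18). Ogn (osteoglycin) and Mgp (an inhibitor of calcification) differed by 84.5 and 72.2 points. One member lay on the other side without reaching the size threshold: Fn1, which encodes fibronectin, lay at 75.8 to 79.5 (median 78.1) in LV and 96.8 to 98.2 (median 97.6) in PBMCs (-19.7 points, SE 0.580, adjusted p = 5.57e-12), and it was called when LV replicate 1 was left out. Fibroblast markers were higher in LV in 11 of 13 (median 39.5 points), among them Ddr2, a collagen receptor (72.3 points), and Dpt, which encodes dermatopontin (62.4). Col1a1, a chain of type I collagen, was not called with 17.8 points.

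Metalloproteinases and their inhibitors, which cut and protect the matrix, were split, 7 of 15 higher in LV and 1 higher in PBMCs (median 19.6 points). Timp4, the inhibitor known from the heart, lay at 87.6 to 92.5 (median 91) in LV and 26.5 to 28.7 (median 27.4) in PBMCs (63 points, SE 0.742, adjusted p = 9.52e-16). Adamts1, Mmp15 and Mmp2 (gelatinase A) differed by 59.3, 49.8 and 47.9 points. Mmp9, the gelatinase of neutrophils and monocytes and the only member higher in PBMCs, lay at 35.6 to 40.2 (median 37.4) in LV and 56.2 to 61.5 (median 59.98) in PBMCs (-22.1 points, SE 0.972, adjusted p = 3.06e-10).

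Endothelial markers were higher in LV in 16 of 20 (median 42.9 points). Emcn, a sialomucin of capillaries and veins, lay at 91.5 to 92.7 (median 92.5) in LV and 15.2 to 17.4 (median 16.5) in PBMCs (75.8 points, SE 0.427, adjusted p = 1.84e-18). Fabp4, Flt1 (a VEGF receptor) and Cdh5 (VE-cadherin) differed by 73.6, 68.9 and 60.9 points. Pecam1, which platelets and leukocytes carry as well as endothelium, lay at 87 to 89.5 (median 88.4) in LV and 89.8 to 93.3 (median 91.2) in PBMCs and was not called. Smooth muscle and pericyte markers were higher in LV in 10 of 12 (median 35.7 points), led by the potassium channel subunits Abcc9 (62.6 points) and Kcnj8 (51.4) and the receptor Pdgfrb (60.03).

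**Figure D4:**
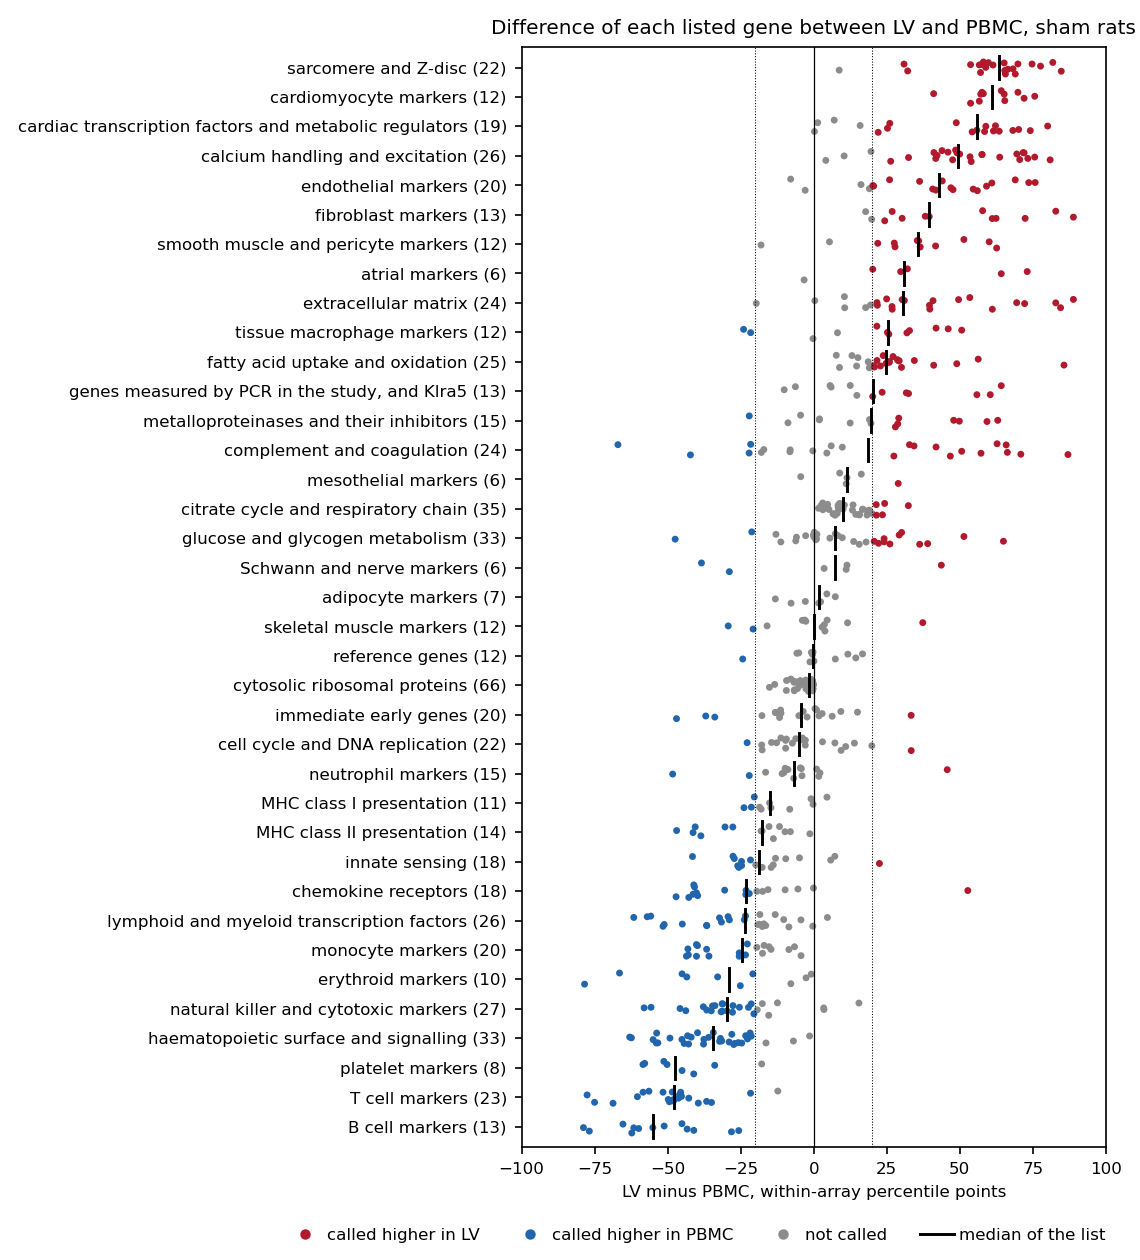
LV minus PBMC difference in percentile points of each measured gene of 37 lists in sham rats, lists ordered by their median (black bar), with the number of measured genes in parentheses. Dots are genes, red if called higher in LV, blue if called higher in PBMCs and grey if not called, and dotted lines mark the size threshold of 20 points.

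On the blood side, T cell markers were higher in PBMCs in 22 of 23, with a median of -48 points. Cd3g, a chain of the T cell receptor complex, lay at 16 to 29.5 (median 19.6) in LV and 98.4 to 98.7 (median 98.6) in PBMCs (-77.6 points, SE 1.76, adjusted p = 4.5e-13). Il7r lay at 20.6 to 26 (median 22.7) in LV and 97.5 to 98.1 (median 97.7) in PBMCs (-75 points, SE 0.798, adjusted p = 3.65e-16). Cd3d differed by -68.7 points. The marker not called was Cd4, which rat macrophages carry too, at 84.2 to 85.7 (median 84.8) in LV and 97 to 97.6 (median 97.1) in PBMCs (-12.3 points, SE 0.337, adjusted p = 2.76e-12), with a centred log2 difference of -2.07. All 13 of 13 B cell markers measured were higher in PBMCs (median -55.1 points). Ms4a1 lay at 13.9 to 18.1 (median 17) in LV and 93.6 to 96.3 (median 95.8) in PBMCs (-78.8 points, SE 0.785, adjusted p = 2.07e-16). Cr2 lay at 10.04 to 13.5 (median 11.6) in LV and 86.6 to 90.2 (median 88.3) in PBMCs (-76.8 points, SE 0.756, adjusted p = 1.87e-16), and Jchain, the joining chain of secreted antibodies, differed by -65.3 points.

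Natural killer and cytotoxic markers were higher in PBMCs in 20 of 27 (median -29.7 points). The granzyme genes Gzmk and Gzma lay at 28.7 to 42.7 (median 30.7) and 24.7 to 39.8 (median 33.1) in LV, and at 89 to 93.9 (median 91.7) and 83.4 to 91.8 (median 89.6) in PBMCs, with differences of -58.1 and -55.7 points. The lectin receptor Klri2 and the cathepsin Ctsw differed by -45.8 and -43.8 points. The wider list of haematopoietic surface and signalling genes was higher in PBMCs in 30 of 33 (median -34.4 points). Its leading members were Itga4, the α4 integrin (-63 points), Ptpn22, a phosphatase that damps T cell receptor signals (-62.4), Cytip (-55) and Sash3 (-53.9). Cd48, Arhgdib and Evl were not called, with centred log2 differences of -0.76, -2.54 and -3.34. Cd48, an adhesion partner of lymphocytes, lay at 97.8 to 98.1 (median 98) in LV and at 99.3 to 99.5 (median 99.4) in PBMCs.

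Markers of mononuclear phagocytes lay on both sides. Monocyte markers were higher in PBMCs in 12 of 20 and higher in LV in 0 (median -24.4 points). Fcgr2b, an Fc receptor, lay at 34 to 44.1 (median 39.6) in LV and 79.3 to 85.4 (median 83) in PBMCs (-43.6 points, SE 1.56, adjusted p = 3.74e-11). Clec4a3, Itgam (CD11b) and Cx3cr1 (the fractalkine receptor) differed by -43.1, -42.9 and -40.2 points. Tissue macrophage markers went the other way in 8 of 12 (median 25.5 points). C1qc, a chain of complement C1q that resident macrophages make, lay at 84.4 to 87 (median 86.3) in LV and 33.3 to 37.1 (median 35) in PBMCs (50.6 points, SE 0.728, adjusted p = 6.05e-15). The haemoglobin scavenger receptor Cd163 lay at 76.2 to 80.05 (median 78.9) in LV and 30.4 to 34.3 (median 32.3) in PBMCs (46 points, SE 0.845, adjusted p = 5.97e-14), and C1qa and C1qb differed by 41.8 and 32.8 points. The 2 members of that list higher in PBMCs were Adgre1 (F4/80, -24 points) and F13a1 (a coagulation factor also stored in platelets and monocytes, -21.6 points).

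Neutrophil markers, which a mononuclear gradient should largely remove, were called in few cases, 2 of 15 higher in PBMCs and 1 higher in LV (median -6.86 points). S100a8, an abundant granulocyte protein, lay at 4.74 to 8.15 (median 5.17) in LV and 6.97 to 11.5 (median 10.2) in PBMCs. These groups overlapped near the dim end of both tissues, where a value cannot show whether granulocytes were present or removed. Csf3r, the receptor for granulocyte colony-stimulating factor that monocytes carry too, lay at 37.6 to 41.8 (median 41.1) in LV and 86.1 to 91.3 (median 88.1) in PBMCs (-48.3 points, SE 1.06, adjusted p = 3.28e-13). The other marker higher in PBMCs was Mmp9, given above among the metalloproteinases. The member higher in LV was Lcn2 (lipocalin 2, an iron-trapping protein), with 45.7 points. Platelet markers were higher in PBMCs in 7 of 8 (median -47.6 points). Ppbp, a platelet chemokine, lay at 32.6 to 41.7 (median 38.8) in LV and 91.7 to 98.2 (median 97.3) in PBMCs (-57.9 points, SE 1.60, adjusted p = 2.96e-12), and Gp5 and Gp9 of the same receptor complex as Gp1ba differed by -51.3 and -50.2 points. The part of platelets in the difference of any other gene was not tested.

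Erythroid markers were higher in PBMCs in 7 of 10 (median -29 points), with a wide spread. Ahsp, the chaperone of α-globin, lay at 8.73 to 11.8 (median 10.5) in LV and 54.6 to 89.2 (median 80.1) in PBMCs (-66.5 points, SE 5.06, adjusted p = 7.75e-08). Hbb, the β-globin gene, lay near the top of every array of both tissues, at 98.7 to 99 (median 98.9) in LV and 98.7 to 99.97 (median 99.9) in PBMCs with overlap. The median percentile of the list was 41 to 44 over LV arrays and 64.6 to 92.2 over PBMC arrays. PBMC replicate 3 was the lowest for Alas2 (the first enzyme of haem synthesis in red cells), Slc4a1 (band 3), Ahsp, Rhd, Epb42 and Hemgn, and also for Hbb, at 98.7. Alas2, for example, lay at 79.1 in replicate 3, at 94.4 and 93.2 in replicates 2 and 4, and at 98, 98.2 and 97.8 in replicates 1, 5 and 6. Rhag did not follow that order, with 92.6 in replicate 3 and 87.3 to 94.5 (median 91) over all 6. The call of Slc4a1 is the least secure of the list, since its groups overlapped, at 65.3 to 73.3 (median 71.7) in LV and 72.4 to 97.5 (median 93.7) in PBMCs, and leaving out LV replicate 1 or 4 or PBMC replicate 1, 5 or 6 ended it.

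**Figure D5:**
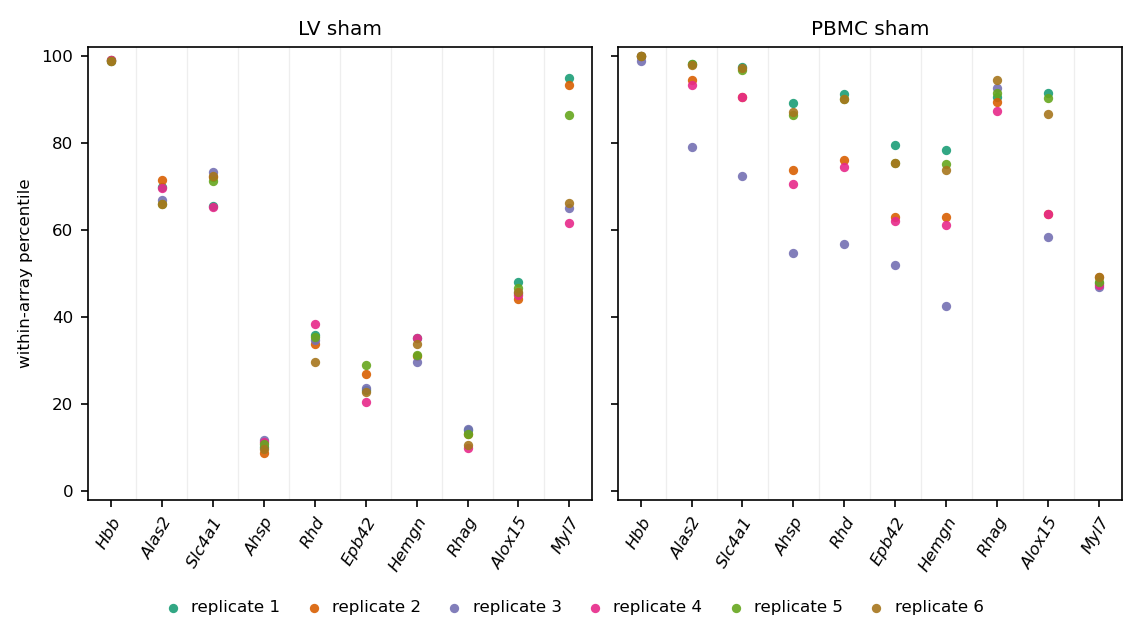
Within-array percentile of 10 genes in each LV sham array (left) and each PBMC sham array (right), coloured by replicate number, where equal numbers are not stated to mark the same animal. In PBMCs all erythroid genes shown but Rhag were lowest in replicate 3, and all but Rhag and Hbb spread over more than 15 points. In LV Myl7 spread from 61.5 to 94.8.

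MHC class II presentation genes were higher in PBMCs in 6 of 14 (median -17.9 points), led by RT1-DOb, a peptide-editing chain of B cells, at 44.2 to 48.5 (median 46.2) in LV and 92.1 to 94.2 (median 93.1) in PBMCs (-46.9 points, SE 0.644, adjusted p = 3.95e-15), Ciita, the master regulator of class II (-41.3 points), the costimulator Cd80 (-40.6) and RT1-Db1 (-38.6). Cd74, the invariant chain, was near the top of both tissues, at 98.2 to 98.6 (median 98.5) in LV and 99.7 to 99.9 (median 99.8) in PBMCs. MHC class I presentation genes were called in 3 of 11 (median -15.1 points), namely Psmb8, RT1-N3 (-21.4 points) and the peptide transporter Tap1 (-20.4), and without LV replicate 3 the call of Tap1 was lost. RT1 genes are near-identical copies whose probes may cross-hybridize, so their values are uncertain.

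Chemokine receptors were higher in PBMCs in 11 of 18 (median -23.2 points). Ccr7, which guides lymphocytes to lymph nodes, lay at 54.3 to 57.5 (median 55.7) in LV and 98.5 to 98.9 (median 98.6) in PBMCs (-42.8 points, SE 0.496, adjusted p = 8.19e-16). Ccr9 and S1pr5 differed by -47.1 and -41.3 points, although S1pr5, which the list also holds, is a receptor for sphingosine 1-phosphate and not for a chemokine. The exception was Ackr3, a scavenging receptor for CXCL12, at 95.4 to 96.5 (median 96.3) in LV and 39.8 to 46.8 (median 43.5) in PBMCs (52.7 points, SE 0.898, adjusted p = 2.93e-14). Innate sensing genes were higher in PBMCs in 8 of 18 (median -18.8 points), with Clec7a, the β-glucan receptor dectin 1 (-41.5 points), Clec4e (-27.6) and Tlr7 (-27.2) in front, and the double-stranded RNA sensor Tlr3 was the 1 gene of the list higher in LV (22.5 points).

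Complement and coagulation genes divided between the tissues, 12 of 24 higher in LV and 4 higher in PBMCs (median 18.6 points). C7, a part of the membrane attack complex, lay at 97.1 to 97.8 (median 97.2) in LV and 9.0 to 12.1 (median 10.5) in PBMCs (87 points, SE 0.504, adjusted p = 2.33e-18). C1s, a protease of the C1 complex, and F3, the tissue factor that starts clotting, differed by 70.9 and 66.3 points. F5, the cofactor of prothrombin activation that platelets also store, went the other way, at 26.6 to 35.7 (median 30.6) in LV and 96.5 to 98.2 (median 98) in PBMCs (-67 points, SE 1.20, adjusted p = 4.72e-14), and C3, the central complement component, differed by -42.2 points.

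Immediate early genes, which can rise while tissue is handled, showed 1 of 20 higher in LV (Ier3, 33.3 points) and 3 higher in PBMCs (Myc, Dusp2 and Nr4a1 with -47, -37 and -33.9 points). Cell cycle and DNA replication genes were called in 2 of 22, Tyms (thymidylate synthase) higher in LV by 33.3 points and Mcm6 (a subunit of the replicative helicase) higher in PBMCs with -22.8 points. The list medians were -4.36 and -5.22 points. Of 66 cytosolic ribosomal protein genes 0 were called. All 66 were lower in LV even so, with a median of -1.77 points, and -0.56 on the centred log2 scale, against a median of -0.04 over all genes. Rpl3 had the widest gap of them, at 82.1 to 83.6 (median 82.8) in LV and 97.8 to 98.2 (median 98.1) in PBMCs (-15.2 points, SE 0.367, adjusted p = 8.16e-13), and its centred log2 difference was -2.65.

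Reference genes, which are often used to normalize PCR, were called in 1 of 12 cases (median -0.348 points). Gusb lay at 44.8 to 50.3 (median 45.7) in LV and 69.8 to 71.8 (median 70.5) in PBMCs (-24.3 points, SE 0.865, adjusted p = 3.6e-11). On the centred log2 scale the reference genes differed by up to 3.08 between tissues, with 3.08 for Sdha (a subunit of respiratory complex II), 1.5 for Hprt1, 1.45 for Pgk1, 0.81 for Tfrc, 0.63 for Gapdh, -0.08 for B2m, -0.25 for Ppia, -0.34 for Rplp0, -0.47 for Actb, -0.68 for Tbp, -1.74 for Gusb and -1.88 for Ywhaz. The smallest of these in size was that of B2m (adjusted p = 0.0927 on that scale). On the signals as deposited the median of all transcript clusters was shifted by -0.53, and the differences above are relative to each array's median.

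A list of genes that the study measured by PCR in LV after infarction, some of them (Cp, Ptgs2 and Tspan12) also in PBMCs, was described at this baseline as well. It also holds Klra5, a lectin receptor gene that the study does not name, while Klra7 and Clr7, which the study followed in both tissues, were not analysed here. Since the study chose most of the list on these animals, its count is no independent evidence of its direction. The list had 7 of 13 higher in LV and 0 higher in PBMCs (median 20.2 points). The natriuretic peptide genes were among them, Nppa at 95.2 to 98 (median 96.7) in LV and 30.05 to 36 (median 32.1) in PBMCs (64.2 points, SE 0.947, adjusted p = 7.83e-15) and Nppb at 98.6 to 99.4 (median 99.2) in LV and 35.9 to 43 (median 38.5) in PBMCs (60.4 points, SE 0.922, adjusted p = 1.04e-14). Corin, the protease that activates the atrial peptide, and Hcn4, the pacemaker channel, differed by 55.8 and 32.4 points. Cp, which encodes the copper carrier ceruloplasmin, lay at 61.2 to 63.4 (median 61.8) in LV and 27.2 to 34.6 (median 30.1) in PBMCs (31.7 points, SE 1.07, adjusted p = 2.22e-11). Tspan12, a tetraspanin, lay at 97.2 to 98 (median 97.9) in LV and 77.6 to 97.2 (median 94.6) in PBMCs, overlapping groups that were not called (5.58 points, SE 2.80, adjusted p = 0.0861, 1.29 on the centred log2 scale), with PBMC replicate 5 well below the others.

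Tgfb2 and Edn1 (endothelin 1) were called with 23.4 and 20.2 points, and the call of Edn1 was lost without LV replicate 4 or 6 or PBMC replicate 2 or 3. Tgfb1, the isoform of leukocytes and platelets, was not called but lay on the other side from Tgfb2, at 84.8 to 87.3 (median 86.6) in LV and 96 to 96.9 (median 96.4) in PBMCs (-10.1 points, SE 0.424, adjusted p = 1.87e-10), with a centred log2 difference of -1.67. Spp1 (osteopontin), a secreted matrix protein, overlapped between tissues and changed sign on the signals as deposited, with 46.1 ± 4.65 in LV and 40.1 ± 1.45 in PBMCs (mean ± SD, n = 6 each). Pparg, Ptgs2 and Klra5 had differences of 14.7, 12.5 and -6.29 points and were not called.

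Markers of cells that an LV sample could hold by dissection were looked at separately. Atrial markers were higher in LV in 5 of 6, and whether atrial tissue contributed to these calls was not tested. Sln (sarcolipin), an atrial protein in rodents, lay at 29.98 to 47.5 (median 36) in LV and 39 to 43.2 (median 40.7) in PBMCs, with overlap. Myl7, the atrial myosin light chain, varied most over the LV arrays of all genes with 1 symbol, at 94.8, 93.2 and 86.4 in replicates 1, 2 and 5 and at 65, 61.5 and 66.1 in replicates 3, 4 and 6, and Sln was at 44.4, 47.5 and 37.5 against 32.2, 34.6 and 29.98 in the same arrays. Kcnj3, an atrial potassium channel subunit, varied little, at 95.6 to 96.2 (median 96.1). The part of atrial tissue in the values of other genes was not tested. Skeletal muscle markers were higher in LV in 1 of 12 (Acta1, the skeletal α-actin that the heart uses as well, 37.3 points) and higher in PBMCs in 2 (Myl11 and Tnnt3, -29.3 and -20.8 points). Adipocyte markers gave 0 calls of 7, mesothelial markers 1 of 6 (Wt1, 28.9 points higher in LV) and Schwann and nerve markers 1 of 6 higher in LV (the cadherin Cdh19, 43.6 points) and 2 higher in PBMCs (Mbp and Gfra3, -38.4 and -28.9 points). The medians of these lists were 30.9 points for atrial, 0.0659 for skeletal muscle, 1.69 for adipocyte, 11.2 for mesothelial and 7.31 for Schwann and nerve markers. The median of skeletal muscle and of adipocyte markers changed sign when percentiles were taken over transcript clusters with 1 symbol. Mbp has a further transcript cluster with a different call.

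Genes with the largest SD within a tissue were described as well. After Myl7, the widest in LV were Adh1c (an alcohol dehydrogenase), Epha3 (an ephrin receptor), Vsnl1 and Gpm6a, with SDs between 9.87 and 14.8 points over the 6 LV arrays. In PBMCs they were Serpini2, Hpgds (a prostaglandin D2 synthase), Prr16, Alox15 (a lipoxygenase) and Defb24, with SDs between 15.2 and 18.2 points. Alox15 lay at 91.4, 90.3 and 86.5 in replicates 1, 5 and 6 and at 63.7, 58.3 and 63.7 in replicates 2, 3 and 4, the arrays in which the erythroid genes apart from Rhag were also high and low. Hpgds lay at 22.4 in replicate 5 against 72.2 in replicate 1.

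The tissue difference was then repeated in rats with a large infarct (L-MI), 5 LV arrays against 5 PBMC arrays, as a comparison that shares no array with the one above. Of the calls in sham rats, 2306 (92.0%) of those higher in LV and 1957 (89.7%) of those higher in PBMCs were called again, and L-MI rats gave 2458 calls higher in LV (8.41%) and 2108 higher in PBMCs (7.22%). An interaction term over the 22 arrays tested whether the tissue difference itself changed with the infarct, and 610 transcript clusters (2.09%) passed an adjusted p of 0.05. Without LV L-MI replicate 2 that count was 946. This term too treats all arrays as independent, although LV and PBMC arrays may share rats. Of the 14506 genes with 1 symbol 446 passed (3.07%), and in 286 (1.97%) the difference shifted towards LV. By list, 11 of 24 extracellular matrix genes passed, all 11 towards LV, with a median change of 4.11 points over the 24, and 9 of 20 monocyte markers passed, all 9 towards LV, with a median of 7.42 points. Of the other cell lists, 3 of 12 tissue macrophage, 5 of 13 fibroblast, 2 of 23 T cell, 1 of 27 natural killer and cytotoxic, 0 of 13 B cell and 0 of 12 cardiomyocyte markers passed. The LV of L-MI rats was sampled outside the infarct, whereas the whole LV was used in sham rats, so infarction and the part sampled cannot be told apart in this term. Of the 209 named genes, 19 passed. Among these the change was largest for Spp1, whose difference was 33.7 points in L-MI rats and 5.95 points in sham rats. Its mean percentile was 74.4 in LV and 40.8 in PBMCs of L-MI rats, and 46.1 in LV and 40.1 in PBMCs of sham rats.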

How the data were processed

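Total RNA of LV and PBMC samples was hybridized to Rat Gene 1.0 ST arrays. The authors summarized the probes of each transcript cluster with the robust multiarray average (RMA) in Partek (versions not given in the sources used here), and the deposited values are on a log2 scale, the base being inferred from their range. The array medians were 6.52 to 6.57 in LV and 6.98 to 7.01 in PBMCs of sham rats, so the tissues are not on a common scale. Scanner files and probe detection were not used here, and the number of arrays, the background at the dim end and the ceiling at the bright end limit the precision of a value.

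From these values the within-array percentiles over 29214 transcript clusters were computed and fitted with limma 3.58.1 (R 4.3.3, lmFit and eBayes), LV minus PBMC, over the 12 sham arrays. Calls needed 20 percentile points and an adjusted p (Benjamini-Hochberg, over all transcript clusters) no higher than 0.05, and an exact permutation test over the 924 splits of 12 arrays was an alternative. The change with infarction was fitted as an interaction over 22 sham and L-MI arrays. The fit was tested on simulated data with shifts of known size. Tables and figures used Python 3.11.15, numpy 2.4.6, pandas 2.3.3 and matplotlib 3.10.9.

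Genes were named from the platform annotation: 15310 transcript clusters had 1 symbol, 323 had several and 13581 had none listed here, and 319 shared their 12 values with another transcript cluster. The transcript cluster with the highest mean percentile stood for a gene, which mattered for 527 genes, and in 49 of them the transcript clusters differed in call. Of 794 genes on 38 lists, 658 were measured with 1 symbol, and of 24 microRNA genes 0 were, so these were not analysed here.

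The lists, pairs and comparisons were chosen with earlier results of these data known. Genes named were the 15 with the largest difference in each direction among calls without overlap, the leading 2 to 4 members of each list, the pairs, the reference genes, the genes the study measured by PCR (with Klra5 added) and the 5 with the largest SD in each tissue. All other genes, such as members not called, were chosen after their values were seen. Alternatives were other scales, thresholds, filters and tests, the omission of each array in turn, and a block for the replicate number. The titles number the samples as biological replicates without naming rats, so which LV and PBMC samples share a rat is not known here, and the fit treats them as independent. The number of data columns of no known sample was 0, and arrays of other infarct sizes were not used.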

Additional observations from a re-analysis of the deposited data

Results flagged for a closer look

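Of 418 groups of 6 sham arrays examined (209 genes, each in LV and in PBMCs), 31 (7.42%) had an array set apart from the rest by more than Dixon's critical share of the group's range, where chance flags about 1 in 20 groups. In LV the arrays set apart were replicate 2 for Mmp2 (percentile 92.2) and Nppb (98.6), replicate 4 for Itgam (46.6), Gusb (50.3) and Tbp (77.7), replicate 5 for Cpt2 (97.9) and Kcnj3 (95.6), and replicate 6 for Cox5b (96.5), Psmb6 (86.6), Icos (25.6) and S100a8 (8.15). In PBMCs replicate 3 was set apart for Hbb (98.7), Alas2 (79.1), Slc4a1 (72.4), Itga4 (97.5) and Vsnl1 (26), and replicate 4 for Smpx (9.07), Pygl (83.7), Psmb8 (88.3), Ppargc1a (20.2), Nr4a1 (89.7) and Gapdh (99.9). Further arrays set apart in PBMCs were replicate 5 for Tecrl (3.60), Tspan12 (77.6) and Hpgds (22.4), replicate 1 for Ttn (23.2), Kcnh2 (50.1) and Gfra3 (94.5), replicate 6 for Ndufs3 (59.1) and Clec7a (86.2), and replicate 2 for Pdgfrb (33.9).

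In 19 of 209 named genes the tissue difference was not the same in L-MI as in sham rats. The test was limma's interaction test with Benjamini-Hochberg adjustment over all transcript clusters. Of all 14506 genes with 1 symbol 446 (3.07%) passed, 286 of them towards LV. The named genes were chosen with earlier results of these data known, so neither their count nor their direction is independent evidence. The values here are the LV minus PBMC difference in L-MI rats minus that in sham rats, in percentile points. In 18 of the 19 named genes the difference shifted towards LV, with 27.7 for Spp1, 13.9 for Fn1, 11.3 for Col1a1 and 5.89 for Aspn. The shift was also towards LV with 15.4 for Clec4a3, 13.1 for Cx3cr1, 12.9 for Tlr7, 12.7 for C3, 12.2 for Adgre1, 11.8 for Clec7a, 9.85 for F13a1 and 6.21 for Cd4. The rest were Cp (10.8), Hcn4 (9.74), Rpl3 (4.53), Tnnt3 (4.50), Tgfb1 (3.40), Pdlim5 (3.08) and Ppp1r3a, the only one with a negative value (-4.38). For Clec4a3 the mean percentile was 56.4 in LV and 84.1 in PBMCs of L-MI rats, and 42.2 in LV and 85.3 in PBMCs of sham rats.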

How the results depend on the processing

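The count of 4689 calls (2507 higher in LV, 2182 higher in PBMCs) was the same with limma-trend, without moderation and with the exact permutation test. It was also the same with normal scores, with all 22 arrays in the fit and with the replicate number as a block (replicate block, 4689). All of these kept the same difference in percentile points for the size threshold. By limma's moderated test the largest adjusted p among calls was 0.0111, so the count could hardly change between them. The equal counts are therefore no evidence of robustness. The replicate numbers are not stated to mark the same rat. In their deviations from the tissue means, LV and PBMC arrays of equal number correlated at -0.00226 to 0.129, and those of other numbers at -0.0927 to 0.0448. An array matched its own number best in 3 of 6 LV and 4 of 6 PBMC cases. Whether equal numbers share a rat was not tested further. The scale and the threshold moved the count of calls. Centred log2 signals with a difference of at least 1 gave 8346 calls (3864 higher in LV, 4482 higher in PBMCs), quantile normalization of the 12 arrays together 8213 (4021 and 4192), and signals as deposited 10681, of which 2708 were higher in LV and 7973 in PBMCs, so that 25.4% of calls were higher in LV there and 53.5% by percentile. Percentiles over transcript clusters with 1 symbol gave 3087 calls (1735 and 1352), fewer being tested. With 10 points there were 10234 calls (4797 and 5437), with 40 points 1447 (910 and 537), and with the adjusted p alone 22991 (10336 and 12655). Leaving out each array gave 4665 to 4707 calls, 2491 to 2523 higher in LV and 2161 to 2204 higher in PBMCs. The 610 changes of the tissue difference with infarction became 468 to 946 when each of 22 arrays was left out, 946 without LV L-MI replicate 2, and the cause was not tested. This alternative was chosen after seeing the data, as was leaving PBMC replicate 3 out of the erythroid list, which kept 7 calls.

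Of 209 named genes, 8 changed their call without some array: Cd36, Edn1, Fn1, Slc2a3, Slc4a1, Tap1, Hpgds and Prr16. Hpgds was called higher in PBMCs without PBMC replicate 5, and Prr16 higher in LV without PBMC replicate 6. Signs turned for Mef2a (-0.31), Mef2d (-0.25) and Spp1 (-0.12) on log2 signals as deposited, for Mef2a again (the difference of Mef2a was -0.025 points) with percentiles over transcript clusters with 1 symbol, and for Sln (6.64 points) and Hpgds (5.60 points) in L-MI rats. With 1 symbol only, the median difference of skeletal muscle markers was -2.01 points and the median difference of adipocyte markers -1.16 points. In each case the cause was not tested. The 6 arrays of each tissue and a ceiling at the top of each array limit what percentiles can show of bright genes.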

Other observations

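Genes that no list held were also among those set far apart. In LV the glutathione transferase Gstm2, the growth hormone receptor Ghr, the growth factor Fgf1 and the adhesion receptor Adgrf5 differed by 91.9, 84.7, 84.2 and 86.7 percentile points. In PBMCs Ceacam4, Xkrx and Serpinb11 differed by -76.2, -75.9 and -81.6 points.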
